A study of Mus musculus with 25 samples.

Results

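The genes described here are 41 mouse cell cycle genes, 20 that act in DNA replication or in the step into S phase and 21 that act in mitosis. They were listed by name and not picked by their values in these arrays. Earlier results of these data were known when they were chosen. All 20 replication genes and 20 of the mitosis genes had a named probe set on the array. These 40 genes are among the 19937 genes tested. Ccnb1, the gene of cyclin B1, was not analysed here. Each gene is represented by 1 probe set, the brightest over all arrays. Pcna and Top2a had a further probe set.

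Total RNA of 25 mouse mammary samples was hybridised to 1 Affymetrix array each, from 100 ng of input per the labels' protocols. The labels give 10 tumors of K8-creERT2/PIK3CA H1047R mice and 10 tumors of Lgr5-creERT2/PIK3CA H1047R mice. Injection of tamoxifen into adults of 7 to 8 weeks switched on PIK3CA H1047R, an activated form of a PI3-kinase subunit, in the mammary cells that expressed keratin 8, a luminal keratin, or Lgr5, a receptor of the Wnt pathway. The reference samples are 2 glands labelled K8-creERT2 ctrl and 3 glands labelled Lgr5-creERT2 ctrl. Their genotype names the creERT2 and no PIK3CA H1047R, and the tamoxifen protocol attached to them is the text of the tumor samples, so their own treatment and age are not clear from it. All K8 animals had a mixed FVB/CD1 background and all Lgr5 animals a mixed FVB/C57/BL6 background, so driver and strain cannot be told apart between the lines. The labels tie no tumor to an animal. Several tumors may therefore share an animal, in which case the arrays are not independent and the p-values may be too small. The p-values reflect the spread among the arrays as labelled, and part of that spread may be technical. The median of each array was 6.34 to 6.43 (log2), and the number of arrays limits the precision.

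In several arrays the tissue markers did not match the label, and groups are therefore named by their labels. Adipocyte genes, 17 in number, averaged 12.06 to 12.34 (log2) in Lgr5 tumors 2, 6, 7, 8 and 9 and 7.19 to 10.86 in all 20 other arrays, the 5 glands among them at 7.19 to 9.09, although the mammary gland lies in fat. The mean of 15 luminal epithelial genes was 8.90 to 9.70 in those 5 Lgr5 tumors and 10.56 to 11.30 elsewhere. The mean of 19 squamous keratinocyte genes was 8.56 to 10.44 in the glands, 9.38 in K8 tumor 9 and 9.70 in Lgr5 tumor 10, and at most 8.22 in the other arrays. B cell genes averaged 6.90 to 7.46 in Lgr5 tumors 1, 2, 7 and 8 and at most 6.28 elsewhere. The mean of 8 skeletal muscle genes was 10.56 in K8 tumor 7 and 10.01, 10.71 and 9.79 in Lgr5 tumors 1, 4 and 10. It was at most 8.95 elsewhere. Counts of called genes are given with and without Lgr5 tumors 2, 6, 7, 8 and 9, K8 tumor 9 and Lgr5 tumor 10. K8 tumor 7, Lgr5 tumors 1 and 4 and the glands stayed in those fits. Higher and lower below compare arrays as labelled. Whether the same holds between tumor and gland tissue is not established.

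A dividing cell copies its DNA in S phase and parts the copies in mitosis. The MCM helicase is loaded on DNA by Cdc6 and Cdt1 before S phase, started by the kinases that cyclin E helps to activate, and followed by Pcna, the sliding clamp of the polymerases. Later, Cdk1 with cyclins A and B drives mitosis, in which Aurora and Polo-like kinases, kinesin motors and the spindle checkpoint move and monitor the chromosomes. Many S phase genes are switched on by E2F factors, and many mitotic genes by the B-Myb and Foxm1 complexes that act through an element named CHR, often near CCAAT boxes bound by NF-Y. In resting cells the DREAM complex keeps both sets down. In the adult mammary gland most cells are at rest, and Mki67 and Top2a are common markers of dividing cells in tumors.

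The promoter windows of the replication and mitosis lists held different shares of known upstream elements, a property that the lists did not use. RefSeq promoter windows on GRCm38.p6, from 250 bases before the annotated start to 50 bases after it, were matched for 32 of 41 genes and searched on both strands. E2F elements were TTTCCCGC, TTTGGCGC, TTTCGCGC or TTTGCCGC, CHR elements were TTTGAA or TTCGAA, and CCAAT boxes were CCAAT. In Mcm5 and Mcm6 a TTTGGCGC on one strand overlaps a TTTCGCGC on the other, and the pair is printed as 1 run of capitals. The 160 bases before the start are shown for 3 replication genes in which an E2F match is present, 5′ to 3′ along the strand of the gene, with matches of all 3 kinds in capitals. They lie at chr8:75109349-75109508 (plus strand) for Mcm5, at chr1:128359706-128359865 (minus strand) for Mcm6 and at chr11:98907991-98908150 (plus strand) for Cdc6.
Mcm5: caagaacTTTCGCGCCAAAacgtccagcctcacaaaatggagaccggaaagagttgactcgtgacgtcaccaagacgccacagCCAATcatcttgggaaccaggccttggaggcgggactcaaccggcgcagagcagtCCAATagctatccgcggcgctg
Mcm6: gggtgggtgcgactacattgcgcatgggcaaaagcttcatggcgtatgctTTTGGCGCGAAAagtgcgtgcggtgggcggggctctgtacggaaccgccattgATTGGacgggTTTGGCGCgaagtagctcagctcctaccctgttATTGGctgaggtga
Cdc6: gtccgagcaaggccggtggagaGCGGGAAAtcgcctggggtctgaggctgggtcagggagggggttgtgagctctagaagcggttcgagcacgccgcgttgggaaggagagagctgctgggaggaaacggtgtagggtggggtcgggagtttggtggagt

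The corresponding stretches of 5 mitosis genes show CHR matches, each stretch with at least 1 CCAAT box on either strand. They lie at chr10:69352913-69353072 (minus strand) for Cdk1, at chr11:99024190-99024349 (minus strand) for Top2a, at chr19:37376222-37376381 (plus strand) for Kif11, at chr7:135716380-135716539 (minus strand) for Mki67 and at chr4:118437344-118437503 (minus strand) for Cdc20. Cdk1 is the mitosis gene that also held an E2F match.
Cdk1: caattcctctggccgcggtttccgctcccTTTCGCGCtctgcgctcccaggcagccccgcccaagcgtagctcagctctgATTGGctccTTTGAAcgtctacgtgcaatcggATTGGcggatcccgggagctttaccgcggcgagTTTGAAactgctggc
Top2a: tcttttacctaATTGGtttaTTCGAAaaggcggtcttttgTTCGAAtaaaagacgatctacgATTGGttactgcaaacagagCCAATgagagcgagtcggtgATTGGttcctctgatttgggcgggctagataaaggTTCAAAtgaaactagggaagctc
Kif11: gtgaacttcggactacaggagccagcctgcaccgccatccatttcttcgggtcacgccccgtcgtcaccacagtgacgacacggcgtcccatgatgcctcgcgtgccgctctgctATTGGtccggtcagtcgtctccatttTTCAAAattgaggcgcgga
Mki67: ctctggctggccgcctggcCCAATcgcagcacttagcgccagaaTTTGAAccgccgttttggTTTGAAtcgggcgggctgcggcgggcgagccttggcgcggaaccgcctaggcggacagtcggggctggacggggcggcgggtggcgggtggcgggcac
Cdc20: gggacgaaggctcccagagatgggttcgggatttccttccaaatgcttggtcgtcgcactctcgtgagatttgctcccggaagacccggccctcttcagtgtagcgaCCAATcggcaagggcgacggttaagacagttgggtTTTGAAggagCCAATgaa

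An E2F match was present in 7 of 16 replication genes with a window (43.8%: Mcm3, Mcm5, Mcm6, Mcm7, Cdt1, Cdc6 and E2f7) and in 1 of 16 mitosis genes (6.25%). The share over all 27025 genes of the table was 2.6%. A CHR match was present in 12 of 16 mitosis genes (75%: Cenpf, Bub1b, Bub1, Aurka, Cdc20, Plk1, Mki67, Ccnb2, Ttk, Cdk1, Top2a and Kif11) and in 3 of 16 replication genes (18.8%), beside 21.7% of all genes. All 12 mitosis genes with a CHR match also held a CCAAT box. CCAAT boxes were in 87.5% of mitosis genes, 62.5% of replication genes and 41.1% of all genes. CHR matches of the mitosis genes lay at a median position of -19 from the start, and E2F matches of the replication genes at -108. Genes of the same steps that are not among the 41 showed a like split, with E2F in 11 of 27 other replication genes (40.7%) and CHR in 28 of 39 other mitosis genes (71.8%). These are matches of letters, given without a test, and they do not show that a factor binds there.

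**Figure D1:**
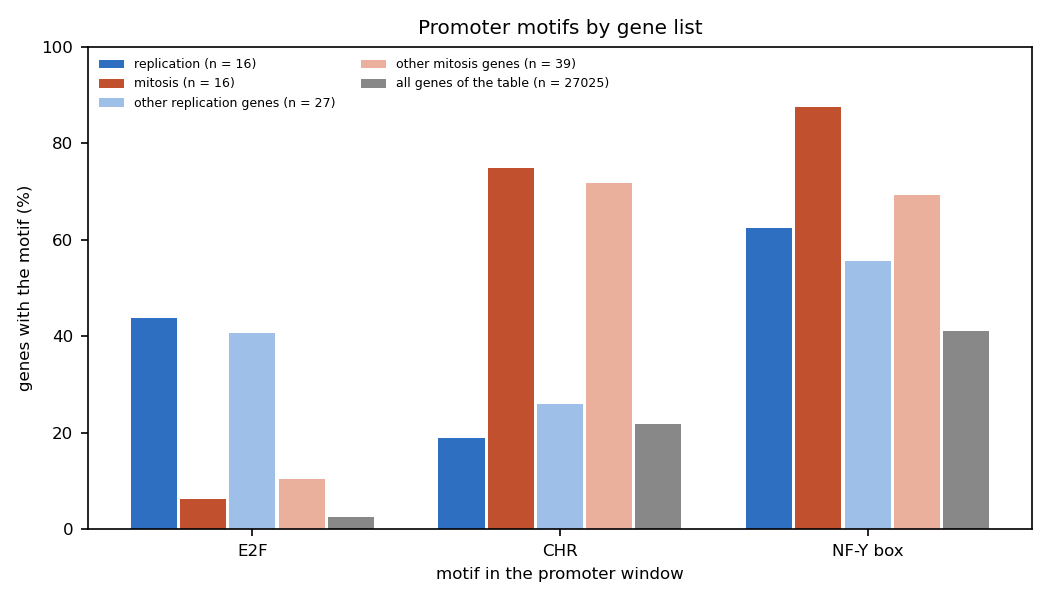
Share of genes (%) whose promoter window holds an E2F, CHR or NF-Y (CCAAT) match, by gene list, with the number of genes that have a window in the key. The E2F bar is tallest for the replication genes (43.8%) and the CHR bar for the mitosis genes (75%).

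Across the arrays the mean of the cell cycle genes was highest in the 2 K8 glands and lowest in the 5 Lgr5 tumors with the highest fat markers. The mean of the 40 genes was 9.28 and 8.99 (log2) in the K8 glands and 8.85, 8.76 and 8.79 in the Lgr5 glands. It ranged from 8.02 to 8.87 with a median of 8.58 in the K8 tumors and from 6.89 to 8.88 with a median of 7.75 in the Lgr5 tumors. The value of 8.88 was that of Lgr5 tumor 10, above all 3 Lgr5 glands, and K8 tumors 3, 4 and 10 (8.79, 8.87 and 8.84) lay in or above the range of the Lgr5 glands. In bulk tissue, fewer dividing cells and less of these RNAs per cell cannot be told apart.

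The mitosis genes varied more between arrays than the replication genes. The range of a gene over the 25 arrays had a median of 3.05 (log2) for the mitosis genes and 1.87 for the replication genes, against 0.66 for all genes tested. Within the Lgr5 tumors the SD of a gene had a median of 0.85 for mitosis and 0.44 for replication genes. Within the K8 tumors the medians were 0.31 and 0.27. The widest ranges were those of Ccna2 (cyclin A2) at 4.59, Plk1 (Polo-like kinase) at 4.12 and Ccnb2 (cyclin B2) at 3.90, and among the replication genes that of Rrm2, a subunit of ribonucleotide reductase, at 3.44. E2f1 at 0.77, Gins2 at 0.91 and E2f7 at 1.04 had the narrowest ranges. Across the 10 Lgr5 tumors the mitosis mean ran from 6.48 to 9.09 and the replication mean from 7.30 to 8.67, with tumor 8 lowest and tumor 10 highest in both.

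**Figure D2:**
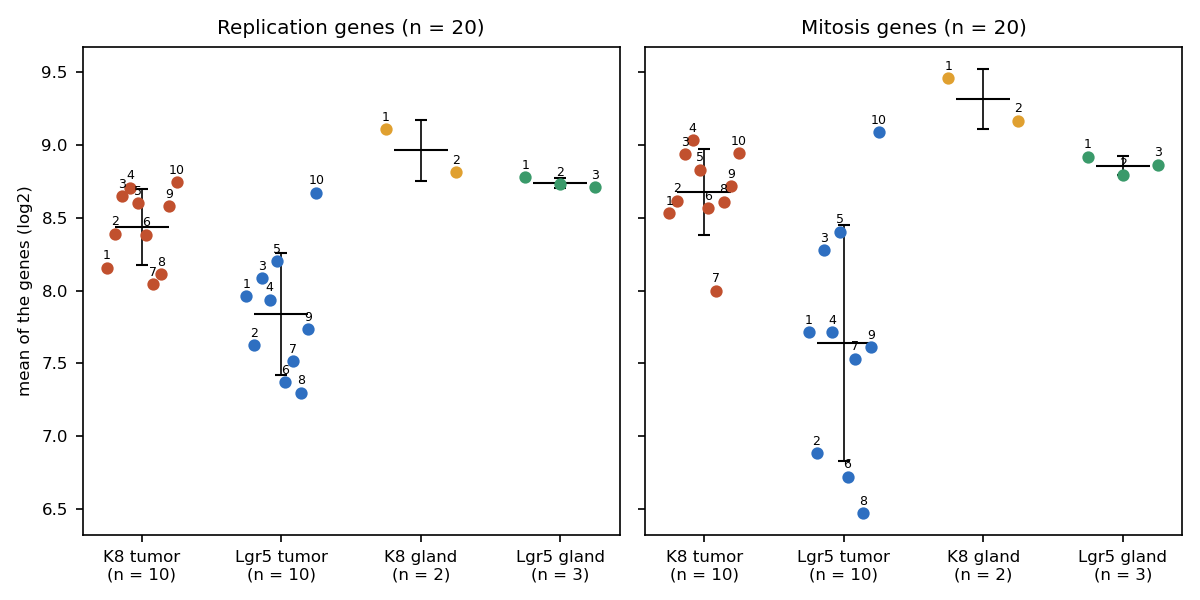
Mean log2 value of the 20 replication genes (left) and the 20 mitosis genes (right) in each array, 1 point per array with its replicate number, and group mean ± SD in black. The Lgr5 tumors spread from 6.48 to 9.09 for mitosis genes, and the 5 glands lie between 8.79 and 9.46.

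Single arrays were at the extremes for most genes. K8 gland 1 had the highest value of all 25 arrays for 35 of the 40 genes. Lgr5 tumor 8 had the lowest value for 24 genes, Lgr5 tumor 6 for 8 genes and Lgr5 tumor 2 for 4 genes. The shares of all genes at the extreme in these single arrays were not counted. The counts are therefore not shown to be particular to the 40 genes. For 22 of the 40 genes, 12 replication and 10 mitosis genes, Lgr5 tumors 2, 6, 7, 8 and 9 were the 5 lowest arrays, a pattern found in 9.32% of all genes. Among the K8 tumors, K8 tumor 7 was lowest for 31 of the 40 genes, again without a count over all genes. Its adipocyte mean of 10.86 and its skeletal muscle mean of 10.56 were the highest among the K8 tumors, and their part in its low values was not tested. Skeletal muscle means were also high in Lgr5 tumors 1, 4 and 10, at 10.01, 10.71 and 9.79. Their means of the 40 genes were 7.84, 7.83 and 8.88.

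**Figure D3:**
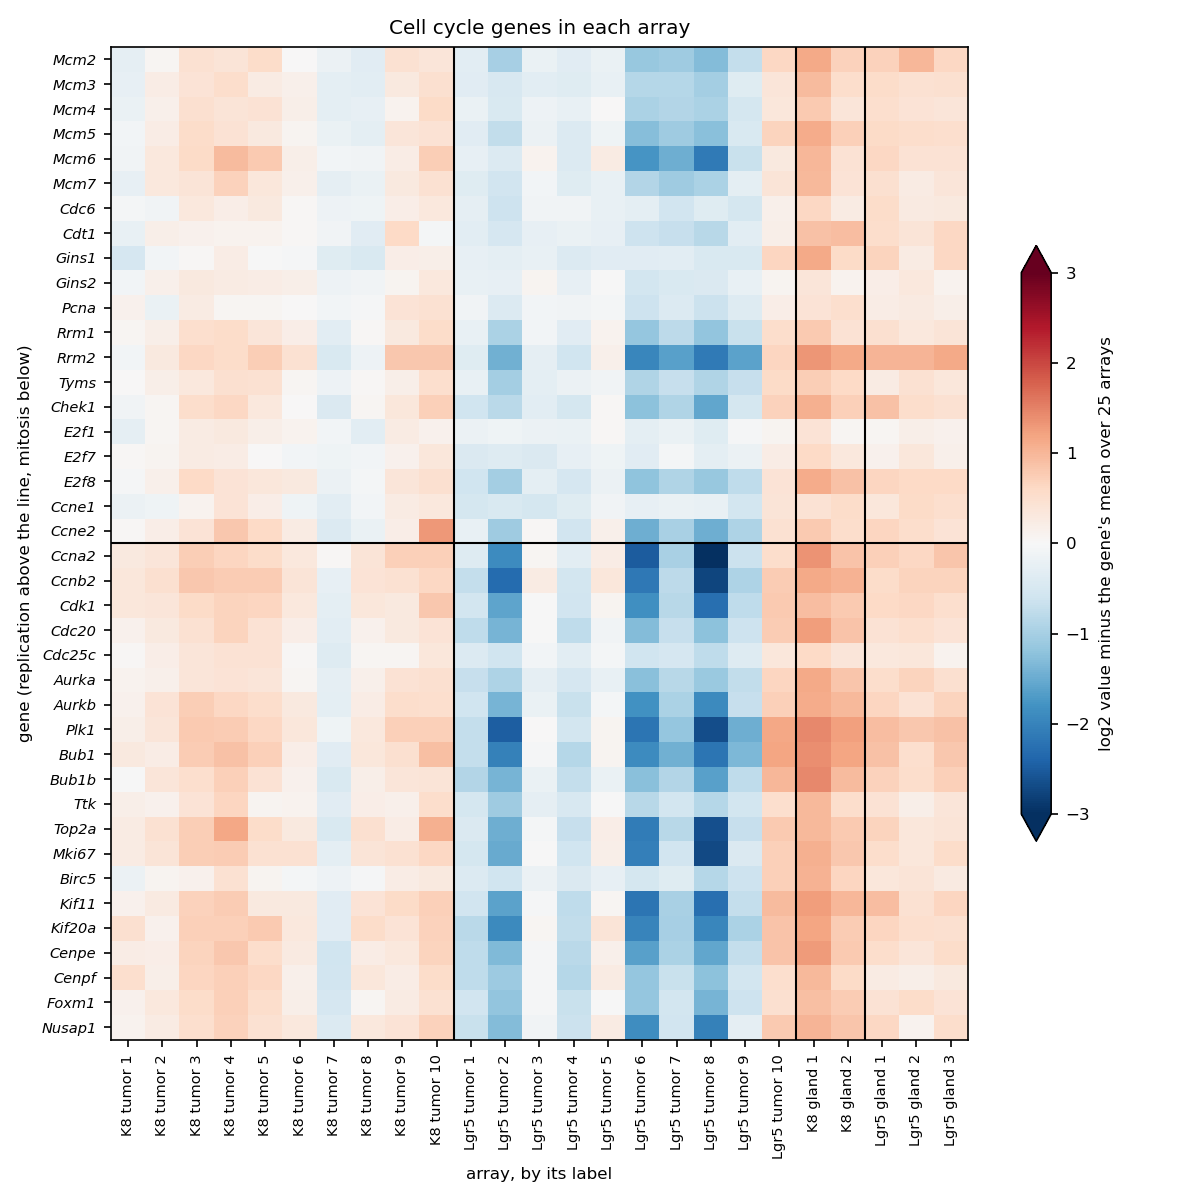
Heat map of the 40 genes (rows, replication above the line and mitosis below) in the 25 arrays (columns, by label), coloured by the log2 value minus the mean of the gene over the arrays. Columns of Lgr5 tumors 2, 6 and 8 are the bluest (lowest), and K8 gland 1 holds the highest value for 35 of 40 genes. The share of all genes highest in that array was not counted.

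The helicase and loading genes show the pattern in single values. Mcm2, a subunit of the MCM helicase, measured 9.87 and 9.43 in the K8 glands and 9.42, 9.73 and 9.36 in the Lgr5 glands. It was 8.41 to 9.29 (median 8.95) in the K8 tumors and 7.44 to 9.35 (median 8.20) in the Lgr5 tumors. Every tumor array of either line was below every gland array of its line, but Lgr5 tumor 10 (9.35) was close to Lgr5 gland 3 (9.36). Mcm6, another helicase subunit, was 8.99 to 9.18 in the Lgr5 glands and 6.44 to 8.84 in the Lgr5 tumors, with tumors 8, 6 and 7 lowest at 6.44, 6.79 and 7.09. Cdc6, a loader of the helicase, was 7.02 to 7.30 in the Lgr5 glands and 6.14 to 6.89 in the Lgr5 tumors, which also do not overlap. Cdt1, the second loader, measured 8.85 and 8.90 in the K8 glands and 7.65 to 8.58 (median 8.04) in the K8 tumors. It was 8.37 to 8.61 in the Lgr5 glands and 7.14 to 8.15 (median 7.66) in the Lgr5 tumors, so tumor and gland arrays were apart in both lines.

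Of the genes that supply DNA building blocks, Rrm2 had the widest range. It measured 9.81 and 9.62 in the K8 glands and 9.49, 9.51 and 9.61 in the Lgr5 glands, 8.02 to 9.30 (median 8.98) in the K8 tumors and 6.36 to 9.11 (median 7.45) in the Lgr5 tumors. Lgr5 tumor 10 at 9.11 was nearest to the glands, and tumors 8 and 6 at 6.36 and 6.53 were farthest. Rrm1, the partner subunit, spanned 9.13 to 10.83 in the Lgr5 tumors and 10.62 to 10.79 in the Lgr5 glands, and overlapped through tumor 10. Pcna, the polymerase clamp, had a narrower span in the probe set used, from 10.80 to 11.64 in the Lgr5 tumors and from 11.62 to 11.70 in the Lgr5 glands. Levels of its other probe set are not given here. The groups overlapped for Pcna in the probe set used.

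The regulators of S phase entry differed among themselves. E2f8, a repressing E2F that limits S phase transcription, was 7.79 to 7.84 in the Lgr5 glands and 5.99 to 7.62 (median 6.53) in the Lgr5 tumors, with no overlap. E2f1, an activating E2F, was 8.31 to 8.43 in the Lgr5 glands and 7.89 to 8.34 (median 8.07) in the Lgr5 tumors, with overlap. Ccne1 and Ccne2 encode the cyclins E, which drive entry into S phase. Ccne1 was 8.12 to 8.37 in the Lgr5 glands and 7.24 to 7.68 in the Lgr5 tumors other than tumor 10, which measured 8.16.

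Among the mitotic kinases and cyclins, Plk1 measured 10.22 and 10.00 in the K8 glands and 9.71, 9.59 and 9.64 in the Lgr5 glands. It was 8.65 to 9.56 (median 9.28) in the K8 tumors and 6.10 to 9.92 (median 7.84) in the Lgr5 tumors. The value of 9.92 belongs to Lgr5 tumor 10 and lies above its glands, while the remaining Lgr5 tumors were at 8.86 or below. Ccna2 was 10.74 to 10.96 in the Lgr5 glands and 6.88 to 10.65 in the Lgr5 tumors, the only mitosis gene whose Lgr5 groups did not overlap. Cdk1, the mitotic kinase, was 10.18 to 10.30 in the Lgr5 glands and 7.42 to 9.77 in the Lgr5 tumors other than tumor 10, at 10.48. Aurka, the spindle pole kinase, was 8.97 and 8.68 in the K8 glands, 7.56 to 8.31 in the K8 tumors, 8.31 to 8.49 in the Lgr5 glands and 6.58 to 8.49 in the Lgr5 tumors.

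The textbook markers of dividing cells had their lowest values in Lgr5 tumors 8, 6 and 2. Mki67, the Ki-67 antigen, measured 11.14 and 10.87 in the K8 glands and 10.60, 10.40 and 10.62 in the Lgr5 glands. It was 9.78 to 10.84 (median 10.52) in the K8 tumors and 7.37 to 10.79 (median 9.51) in the Lgr5 tumors. Top2a, the topoisomerase that untangles chromosomes, measured 10.01 and 9.83 in the K8 glands and 9.70, 9.37 and 9.43 in the Lgr5 glands, 8.58 to 10.20 (median 9.50) in the K8 tumors and 6.41 to 9.82 (median 8.36) in the Lgr5 tumors. For both genes the Lgr5 tumors reached from below all other arrays up past the highest Lgr5 gland.

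Arrays labelled Lgr5 tumor were compared with Lgr5 glands to see how the genes differ between the tumors of that line and its control tissue. All 40 genes were lower in the tumors, and 34 passed the test at an adjusted p under 0.05 (limma, Benjamini-Hochberg over 19937 genes), 18 of 20 replication and 16 of 20 mitosis genes. Of all genes tested, 10.6% were called lower and 5.28% higher. The median log2 difference was -0.84 for replication genes and -1.24 for mitosis genes, against -0.01 for all genes. Cdt1 was lower by 1.86-fold (log2 difference -0.89 ± 0.16, SE, limma adjusted p = 0.00575) and E2f8 by 2.34-fold (-1.23 ± 0.24, limma adjusted p = 0.00726). Rrm2 was lower by 3.93-fold (-1.98 ± 0.44, limma adjusted p = 0.0104). Of the other replication genes, Mcm2 differed by -1.33 ± 0.29, Mcm3 by -0.94 ± 0.22, Cdc6 by -0.66 ± 0.14, Ccne1 by -0.75 ± 0.16, Gins1 by -0.75 ± 0.19 and Pcna by -0.49 ± 0.14, all called.

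Of the mitosis genes, Aurka was lower by 2.21-fold (-1.15 ± 0.25, limma adjusted p = 0.01) and Plk1 by 3.65-fold (-1.87 ± 0.53, limma adjusted p = 0.0238). Also called were Aurkb, the kinase of the chromosomal passenger complex (-1.34 ± 0.36), Bub1b and Ttk, kinases of the spindle checkpoint (-1.33 ± 0.35 and -0.79 ± 0.23), Foxm1, a transcription factor of mitotic genes (-1.04 ± 0.29), Cdc20, an activator of the anaphase-promoting complex (-1.06 ± 0.30), and Birc5, survivin (-0.69 ± 0.20). Mki67 (-1.23 ± 0.46, limma adjusted p = 0.0681) and Top2a (-1.25 ± 0.48, limma adjusted p = 0.0735) did not pass. The other genes that did not pass were Mcm6, E2f1, Cenpf and Nusap1. For 10 of the 40 genes, 9 of them replication genes, no tumor array reached the lowest gland, which held for 3.88% of all genes in that direction.

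The number of calls depended on which arrays entered the fit. Without Lgr5 tumors 2, 6, 7, 8 and 9, no gene of the 40 was called (limma; 29 had an unadjusted p under 0.05), while all 40 remained negative with a median of -0.60. In that fit 1 of 19937 genes was called, and 19.1% had an unadjusted p under 0.05. Without K8 tumor 9 and Lgr5 tumor 10, 39 were called, beside 5387 of all 19937 genes in either direction. Without all 7 of these arrays 26 were called lower, 12 replication and 14 mitosis genes (10.8% of all genes), with a median of -0.79. Leaving out 1 gland reduced the count to 3 (Lgr5 gland 1), 13 (Lgr5 gland 2) or 8 (Lgr5 gland 3). With only the Lgr5 arrays in the fit, 5 were called. Shares of all genes are not given for that fit or for the fits without 1 gland. Those lower counts are therefore not shown to be particular to the 40 genes.

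Marker levels differed alongside. In the same comparison 13 of 17 adipocyte genes were called higher with a median of 2.96, 15 of 19 squamous genes lower with a median of -2.88, 4 of 15 luminal epithelial genes lower with a median of -1.02, and 9 of 10 endothelial genes higher with a median of 1.02. With the adipocyte mean as a covariate no gene of the 40 was called (limma; 9 had an unadjusted p under 0.05) and the median was -0.22. With the luminal epithelial mean as a covariate none was called either (limma; 14 unadjusted) and the median was -0.45. Of all 19937 genes, 0 were called in the adipocyte fit and 5 in the luminal epithelial fit (15.5% and 14.9% unadjusted).

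**Figure D4:**
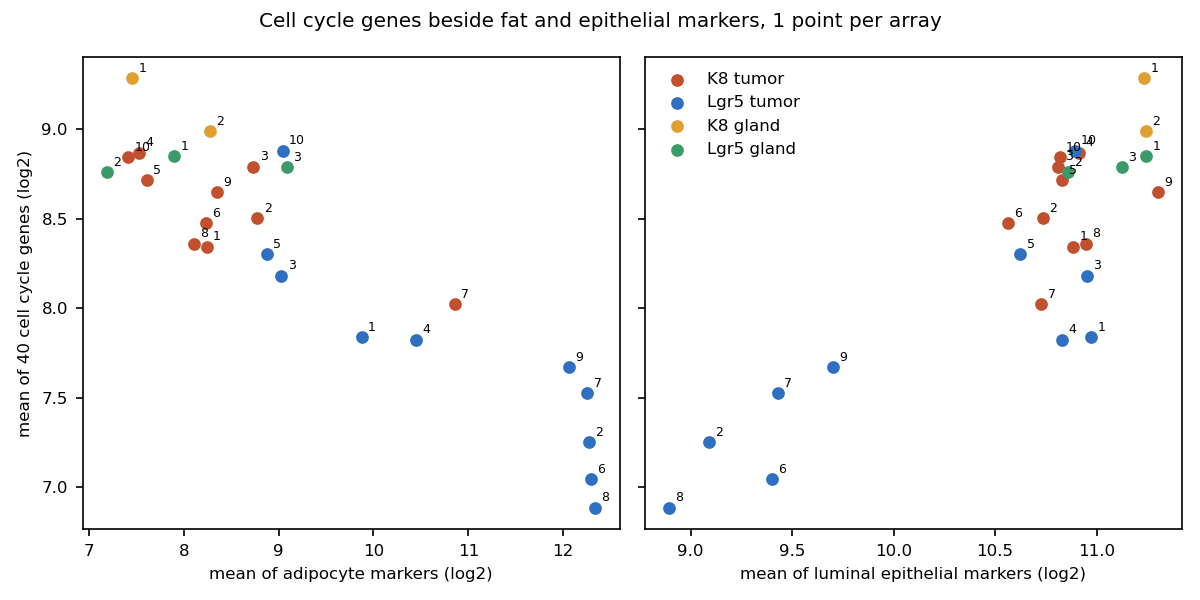
Mean of the 40 cell cycle genes (log2) against the mean of 17 adipocyte markers (left) and of 15 luminal epithelial markers (right), 1 point per array, coloured by label and numbered by replicate. Lgr5 tumors 2, 6, 7, 8 and 9 lie apart, with adipocyte means of 12.06 to 12.34 and cell cycle means of 6.89 to 7.67.

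The arrays labelled K8 tumor were set against the 2 K8 glands in the same way. All 40 genes were again lower in the tumors, and 3 passed the test (limma, 14 at an unadjusted p under 0.05). Of all genes, 5.69% were called lower and 3.42% higher, and 24.6% had an unadjusted p under 0.05. The count of 3 of 40 is near the share called lower. The median difference was -0.45 for replication and -0.62 for mitosis genes. Cdt1 was lower by 1.81-fold (-0.85 ± 0.19, limma adjusted p = 0.016). Gins1, a subunit of the GINS complex of the replicative helicase, measured 7.68 and 7.13 in the glands and 6.04 to 6.78 in the tumors, and was lower by 1.91-fold (-0.94 ± 0.22, limma adjusted p = 0.0179). Birc5 measured 8.09 and 7.68 in the glands and 6.86 to 7.50 in the tumors, lower by 1.69-fold (-0.76 ± 0.24, limma adjusted p = 0.0461).

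The next genes in order of p were E2f7 (-0.38 ± 0.13, limma adjusted p = 0.0791), E2f8 (-0.76 ± 0.28, limma adjusted p = 0.086) and Aurka (-0.76 ± 0.30, limma adjusted p = 0.105). Mcm2 (-0.76 ± 0.34), Mcm3 (-0.60 ± 0.26), Mcm5 (-0.74 ± 0.33), Ccne1 (-0.44 ± 0.19), Bub1b (-0.94 ± 0.41), Cdc20 (-0.79 ± 0.36), Foxm1 (-0.56 ± 0.34), Ttk (-0.55 ± 0.27), Aurkb (-0.68 ± 0.42), Cdc25c (-0.33 ± 0.21) and Pcna (-0.36 ± 0.17) did not pass. Mki67 (-0.51 ± 0.54, limma adjusted p = 0.639) and Top2a (-0.41 ± 0.56, limma adjusted p = 0.745) had SEs as large as their differences. In 23 of 40 genes, 10 replication and 13 mitosis genes, all 10 K8 tumors were below both K8 glands. The share of all genes with that order was 9.08%.

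With 2 glands, single arrays decided these calls. No gene of the 40 was called without K8 gland 1 or without K8 gland 2, and 7 were called without Lgr5 tumor 10, an array outside the comparison that enters the shared estimate of spread. Birc5 lost its call in 18 of the 25 fits that left out 1 array. Without K8 tumor 9 and Lgr5 tumor 10, 8 genes were called, a share like that of all genes (3963 of 19937 in either direction). The share of all genes called lower alone is not given for that fit. With Lgr5 tumors 2, 6, 7, 8 and 9 left out as well, 21 were called lower, 12 replication and 9 mitosis genes, beside 15.4% of all genes. The 2 K8 glands, with squamous means of 9.68 and 9.92, stayed in these fits. With only the K8 arrays in the fit 11 were called. Shares of all genes are not given for that fit or for the fits that left out 1 array. Of the tissue markers, 13 of 19 squamous genes were called lower here (median -3.37) and 6 of 12 basal genes higher (median 1.62), with no adipocyte or luminal epithelial gene called. The part of these cells in the differences was not tested.

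**Figure D5:**
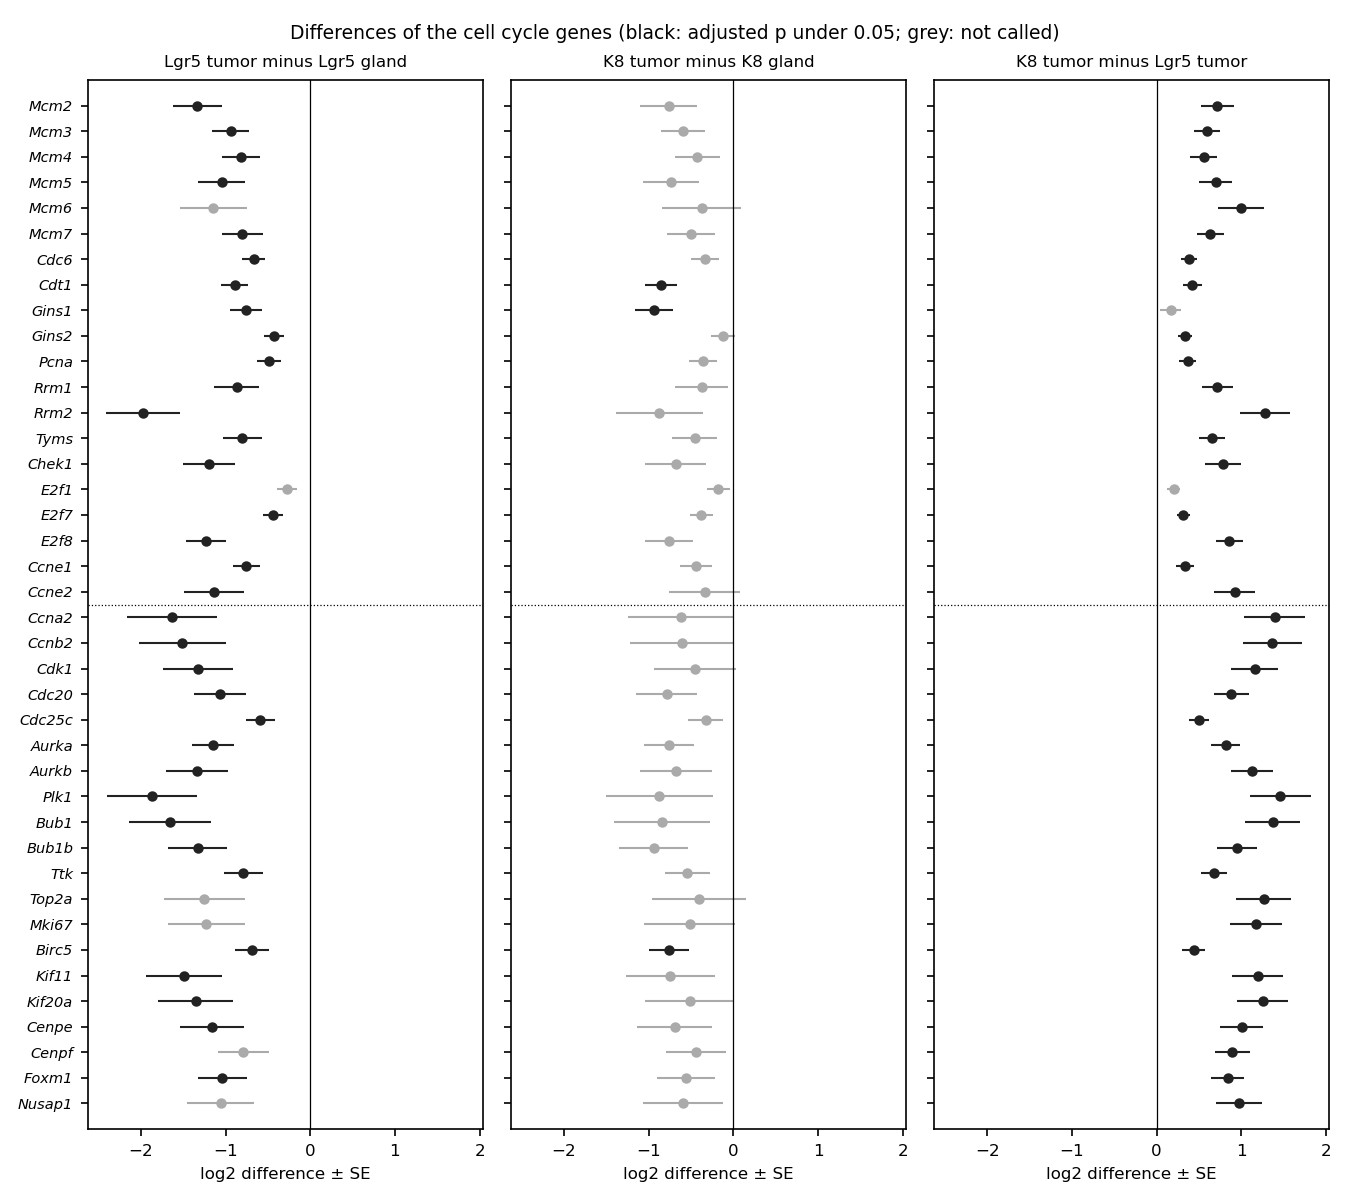
Log2 difference ± SE of each gene in the 3 comparisons, replication genes above the dotted line and mitosis genes below, black where the adjusted p was under 0.05. All points lie below 0 against the glands and above 0 for K8 tumors against Lgr5 tumors, with 34, 3 and 38 of 40 in black.

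Between the tumor groups, K8 tumors had the higher values. All 40 genes were higher in the K8 tumors and 38 passed the test (limma), 18 of 20 replication and 20 of 20 mitosis genes, while 12.3% of all genes were called higher and 9.00% lower. The median difference was 0.61 for replication and 1.07 for mitosis genes. Rrm2 was higher by 2.43-fold (1.28 ± 0.30, limma adjusted p = 0.0135), E2f8 by 1.81-fold (0.86 ± 0.16, limma adjusted p = 0.0103) and Aurka by 1.76-fold (0.81 ± 0.17, limma adjusted p = 0.0118). Bub1, a spindle checkpoint kinase, was 7.32 to 8.58 (median 8.09) in the K8 tumors and 5.48 to 8.86 (median 6.57) in the Lgr5 tumors, higher by 2.59-fold (1.37 ± 0.33). Top2a was higher by 2.40-fold (1.26 ± 0.32, limma adjusted p = 0.0153) and Mki67 by 2.26-fold (1.18 ± 0.31, limma adjusted p = 0.0165). Also called were Aurkb (1.12 ± 0.25), Cenpf, a kinetochore protein (0.89 ± 0.20), Cdc20 (0.88 ± 0.21), Foxm1 (0.84 ± 0.19), Mcm2 (0.72 ± 0.20), Rrm1 (0.72 ± 0.18), Tyms, thymidylate synthase (0.66 ± 0.15), and Pcna (0.37 ± 0.10). The remaining called genes with the smallest p were Mcm3 (0.59 ± 0.15), Cdc6 (0.39 ± 0.09), Gins2 (0.34 ± 0.08), E2f7 (0.31 ± 0.08), Ttk (0.67 ± 0.15) and Cdc25c (0.50 ± 0.12). Gins1 (0.16 ± 0.13, limma adjusted p = 0.389) and E2f1 (0.20 ± 0.08, limma adjusted p = 0.0677) did not pass.

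For each of the 40 genes the 2 tumor groups overlapped. Without Lgr5 tumors 2, 6, 7, 8 and 9 the count fell to 0 (limma; 14 of 40 at an unadjusted p under 0.05), as it did for all genes (0%), and the median difference was 0.36 with all 40 genes positive. Without all 7 arrays 0 were called too (0% of all genes; 35 of 40 unadjusted), with a median of 0.54. Over all genes the unadjusted shares were 8.22% without the 5 arrays and 11.4% without all 7. Fits without 1 array called 36 to 40, and shares of all genes are not given for those fits. In the full comparison 16 of 17 adipocyte genes were called lower in K8 tumors (median -2.46) and 9 of 15 luminal epithelial genes higher (median 0.76). With the adipocyte mean as a covariate 0 of the 40 were called (limma; 0 unadjusted) and the median was 0.10. With the luminal epithelial mean as a covariate the count was 0 (limma; 20 unadjusted) and the median 0.39. Of all 19937 genes, 0 were called in either of these fits (2.71% and 10.6% unadjusted).

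No difference between the glands of the lines passed the test. All 40 genes had higher means in the 2 K8 glands than in the 3 Lgr5 glands, with a median of 0.37, and 0 were called (limma; 0 at an unadjusted p under 0.05). No gene of the array was called either (0%, with 319 of 19937 unadjusted). Cdc20 (0.61 ± 0.42), Birc5 (0.51 ± 0.28), Ttk (0.43 ± 0.31), Cdt1 (0.38 ± 0.23), Gins1 (0.35 ± 0.26) and E2f7 (0.25 ± 0.16) had the smallest p in their lists. The values were 0.46 ± 0.63 for Mki67, 0.42 ± 0.66 for Top2a, 0.24 ± 0.20 for Pcna and 0.15 ± 0.40 for Mcm2. The difference between the tumor-gland differences of the lines, K8 minus Lgr5, was tested directly. It was positive for 38 of 40 genes with a median of 0.43, and 0 genes of the 40 and 0 of all genes (0%) were called (limma; 0 of the 40 and 883 of all genes unadjusted). The smallest p in their lists belonged to Rrm2 (1.10 ± 0.68), Gins2 (0.31 ± 0.19), Cdc6 (0.33 ± 0.21), Cdk1 (0.87 ± 0.63), Ccna2 (1.01 ± 0.82) and Kif20a (0.84 ± 0.68). The values were 0.71 ± 0.70 for Mki67, 0.84 ± 0.73 for Top2a, 0.57 ± 0.45 for Mcm2 and 0.13 ± 0.22 for Pcna. So the larger number of calls in the Lgr5 line is not shown to be a larger difference.

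Other genes of the same pathways were counted from lists drawn up by function. The shares to read these counts against are 10.6% of all genes called lower and 5.28% higher in the Lgr5 comparison, 5.69% lower and 3.42% higher in the K8 comparison, and 12.3% higher and 9.00% lower in K8 than in Lgr5 tumors. The K8 counts of the first 2 lists, 3 of 32 and 3 of 46, are near that share. Of 32 other replication genes 23 were lower in Lgr5 tumors than in Lgr5 glands, 3 were lower in K8 tumors than in K8 glands and 22 were higher in K8 than in Lgr5 tumors, with no call in the opposite direction. Among them Uhrf1, which maintains DNA methylation at replication, differed by -1.17 ± 0.26 and Rfc4, a loader of the clamp, by -0.91 ± 0.20 in the Lgr5 comparison. Orc1, a subunit of the origin recognition complex, differed by -0.69 ± 0.12 and Cdc45, a partner of the helicase, by -0.55 ± 0.12 in the K8 comparison. Of 46 other mitosis genes the same counts were 33, 3 and 44. Incenp, of the chromosomal passenger complex, differed by -0.89 ± 0.21 and Ccnf by -1.07 ± 0.26 against the Lgr5 glands, and Kif18b, a kinesin, by 1.10 ± 0.22 between the tumors. Medians in the 3 comparisons were -0.54, -0.37 and 0.40 for other replication and -0.88, -0.53 and 0.76 for other mitosis genes. Without Lgr5 tumors 2, 6, 7, 8 and 9 the counts were 0, 8 and 0 for other replication genes (limma; 19, 20 and 6 at an unadjusted p under 0.05) and 0, 6 and 0 for other mitosis genes (16, 22 and 20 unadjusted). Without all 7 arrays they were 18, 15 and 0 (limma; 26, 22 and 24 unadjusted) and 26, 19 and 0 (39, 29 and 43 unadjusted). The shares above do not hold for these 2 fits. Of all 19937 genes, the first called 1, 2549 and 0 in either direction (19.1%, 29.9% and 8.22% unadjusted). The second called 3582, 5351 and 0 (30.9%, 36.5% and 11.4% unadjusted). The K8 count of 6 of 46, all lower, is near the share of the first fit in either direction. The share called lower alone is not given for that fit.

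The regulators of G1, the phase before S phase, were counted separately. Of 8 G1 cyclins and kinases 5 were lower in Lgr5 tumors than in Lgr5 glands, among them Cdc25a (-0.67 ± 0.17), Cdk2 (-0.45 ± 0.13), Myc (-0.78 ± 0.24) and Ccnd1 (-1.02 ± 0.31). In the K8 comparison only Cdc25a, a phosphatase that activates Cdk2, was called (-0.91 ± 0.20), and between the tumors 4 were higher, with Cdk4 at 0.42 ± 0.10. Of 13 E2F and DREAM genes 5 were lower in the Lgr5 and 3 in the K8 comparison. Mybl2, the B-Myb factor of mitotic genes, was lower in both (-0.77 ± 0.13 and -0.68 ± 0.16) and higher in K8 than in Lgr5 tumors (0.41 ± 0.09). In the fat-rich arrays Mybl2 measured 7.39 to 7.60, beside 7.38 to 7.76 in Lgr5 tumors 1, 3, 4 and 5. Without the fat-rich arrays no gene of these 2 lists was called in the Lgr5 comparison (limma; 5 of 8 and 5 of 13 unadjusted) or between the tumors (2 and 2 unadjusted), and Mybl2 differed by -0.68 ± 0.15 and 0.32 ± 0.12. Without all 7 arrays 2 G1 genes were lower in the Lgr5 comparison, as were 5 E2F and DREAM genes with 1 higher, and 0 were called between the tumors (limma; 4 and 3 unadjusted).

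Inhibitors and genes of resting cells formed the last list. Of 17 such genes 2 were higher and 5 lower in Lgr5 tumors than in Lgr5 glands. Cdkn2c, an inhibitor of Cdk4 and Cdk6, measured 10.80 to 11.32 in Lgr5 tumors 2, 6, 7, 8 and 9 and 8.31 to 9.89 in all other arrays. Its difference was 1.41 ± 0.44 against the Lgr5 glands (limma adjusted p = 0.0351) and -0.92 ± 0.30 for K8 against Lgr5 tumors (limma adjusted p = 0.0356). Rbl2, the p130 pocket protein of the DREAM complex, was higher than in the Lgr5 glands by 0.59 ± 0.18. Cdkn2b (-1.16 ± 0.32), Fzr1 (-0.49 ± 0.12) and Gadd45a (-0.45 ± 0.12) were lower. In the K8 comparison 2 were lower, Fzr1 (-0.47 ± 0.14) and Gadd45a (-0.47 ± 0.14). These counts are a few genes beside the shares of all genes given above. Without Lgr5 tumors 2, 6, 7, 8 and 9 no inhibitor gene was called in the Lgr5 comparison or between the tumors (limma; 7 and 2 of 17 unadjusted). Cdkn2c then differed by 0.53 ± 0.26 from the Lgr5 glands and by -0.03 ± 0.19 between the tumors. Without all 7 arrays 3 inhibitor genes were higher and 4 lower in the Lgr5 comparison, with Cdkn2c at 0.67 ± 0.17, and 0 were called between the tumors (limma; 4 unadjusted). In the K8 comparison the lower calls among the G1, E2F and DREAM and inhibitor genes numbered 1, 4 and 3 without the 5 fat-rich arrays. Of all 19937 genes, 2549 were called in either direction in that fit. Without all 7 they numbered 2, 5 and 4, with 2 G1 and 3 inhibitor genes higher, beside 15.4% of all genes lower.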

How the data were processed

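Per the submitters' processing notes the affy package was used, with no version given. Background correction and the summary of probes: not given in the sources used here. The authors' deposited table holds 34760 probe sets in 25 arrays on a log2 scale, a base inferred from its range of 4.13 to 13.9. Of these, 21640 carried 1 gene symbol in the platform annotation, 1321 several and 11799 none listed; 21553 matched a RefSeq gene identifier. Where a symbol had several probe sets (954 symbols), the one with the highest mean was kept, which left 19937 genes. Tests used limma 3.58.1 in R 4.3.3, with 4 group means over all 25 arrays, eBayes and Benjamini-Hochberg adjustment over all genes, at 0.05. The fit was also run on simulated data in which genes varied independently. The genes here move together, so that run does not test the counts given. Errors beside log2 differences are SEs of that fit, and a fold is 2 to the power of the size of that difference.

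The genes and lists were chosen with earlier results of these data known. Text names, in each main comparison, the 8 replication and 8 mitosis genes with the smallest p, with Mki67, Pcna, Mcm2 and Top2a, and 3 of each in the others. Of each pathway list it draws on up to 4 called genes with the smallest p and those called the other way. Genes described by levels alone carry no test. Plk1, Mcm6 and E2f1 levels, Mybl2 levels and the count of fat-rich arrays at the bottom were chosen after their values were seen. No arrays were identical (highest correlation 0.995). Same-numbered tumors of the lines had correlations of -0.147 to 0.513, and the numbers were not taken to pair them. Promoter windows are RefSeq's for GRCm38.p6, and coordinates are from that table.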

Additional observations from a re-analysis of the deposited data

Results flagged for a closer look

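In each tumor group of 10 the highest or lowest array was tested for its gap to the nearest other. Of 84 groups, 11 held such an array, where chance gives about 1 in 20, or 4.2. The groups share arrays and the genes move together, so the 11 are not separate events.

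In K8 tumor 7 the mitosis mean was 8.00, with the next array at 8.53. The genes lowest there with such a gap were Ccnb2 at 9.87 (next 10.47), Cdk1 at 9.39 (next 9.98), Cdc25c at 6.09 (next 6.50), Mki67 at 9.78 (next 10.32), Cenpe at 6.84 (next 7.64), Cenpf at 7.14 (next 7.87) and Nusap1 at 8.41 (next 8.92). All 7 are mitosis genes. The array had the highest adipocyte mean (10.86) and skeletal muscle mean (10.56) among the K8 tumors, and their part in the low values was not tested.

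In Lgr5 tumor 10, 3 genes were highest with such a gap. Gins1 measured 7.20 (next 6.32), Ccne1 8.16 (next 7.68) and Birc5 7.75 (next 6.86). Its squamous mean of 9.70 was in the range of the glands and its skeletal muscle mean was 9.79. The part of those cells was not tested.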

How the results depend on the processing

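Counts of called genes are given here for Lgr5 tumors against Lgr5 glands, K8 tumors against K8 glands and tumors against tumors, in this order. Of the 40 genes they were 34, 3 and 38. They became 5, 11 and 38 when the fit held only the groups compared, and 34, 15 and 38 under array weights. Adjusting for the adipocyte mean gave 0, 5 and 0, and adjusting for the luminal epithelial mean gave 0, 3 and 0. Dropping the 5 fat-rich arrays gave 0, 6 and 0. Dropping K8 tumor 9 together with Lgr5 tumor 10 gave 39, 8 and 38, and dropping all 7 gave 26, 21 and 0. A required log2 difference of at least 1 gave 19, 0 and 12. Fits that left out 1 array each gave 3 to 39, 0 to 7 and 36 to 40. The other 2 comparisons had 0 called under every alternative tried. With the replicate block (shared replicate numbers) the counts were 34, 3 and 38, and no call of a named gene changed; 1 of 10 K8 tumors matched best the Lgr5 tumor of its number. Over all 19937 genes, counts in either direction were 3168, 1815 and 4246 in the main fit. They were 0, 3042 and 0 under the adipocyte adjustment and 5, 2833 and 0 under the luminal epithelial adjustment. Dropping the 5 fat-rich arrays gave 1, 2549 and 0. Dropping K8 tumor 9 and Lgr5 tumor 10 gave 5387, 3963 and 5651, and dropping all 7 gave 3582, 5351 and 0. The K8 counts of 5, 3, 6 and 8 of the 40 are near or below these shares, which hold both directions. The share called lower alone, the closer measure for genes lower in the tumors, is not given for these fits. Counts over all genes are not given for the other alternatives, so their counts of the 40 have no share to be read against. The cause of the changes in count was not tested.

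Some named values changed sign. Under the adipocyte adjustment Top2a was 0.083 in Lgr5 tumors against glands, and the difference of contrasts was -0.099 for Cdk1, -0.0885 for Ccna2, -0.24 for Kif20a, -0.23 for Mki67, -0.16 for Pcna, -0.0677 for Mcm2 and -0.24 for Top2a. For Pcna that difference was -0.0504 under the luminal epithelial adjustment, -0.099 without the 5 fat-rich arrays and -0.0729 without all 7. Mcm2 between the glands ranged from -0.0702 to 0.37 when 1 array was left out. The table holds no background signal, so its effect on low values was not tested.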

Other observations

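Other cell cycle genes were also set apart in the 5 fat-rich arrays, Lgr5 tumors 2, 6, 7, 8 and 9, chosen here after their values were seen and given without a test. Ccnd2 (cyclin D2) measured 11.16 to 11.31 there and 8.54 to 10.83 in the other 20 arrays, while Ccnd1 (cyclin D1) measured 10.09 to 11.07 there and 11.19 to 12.40 elsewhere. Both encode D-type cyclins, partners of Cdk4 and Cdk6. Lin52, a subunit of the MuvB core shared by the DREAM and B-Myb complexes, measured 8.30 to 8.95 in those arrays and 7.33 to 7.89 elsewhere, and was lower in K8 than in Lgr5 tumors by the test (-0.50 ± 0.16, limma adjusted p = 0.0305). Without the 5 fat-rich arrays that difference was -0.02 ± 0.07 and did not pass. With K8 tumor 9 and Lgr5 tumor 10 left out as well, it was -0.10 ± 0.06 and did not pass.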
